A study of Danio rerio with 2 samples.

Results

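The genes described here are apoc1, apoc2, afp4 and hnf4a, which encode lipoprotein and plasma proteins of the zebrafish yolk syncytial layer and a nuclear receptor present there. They were picked by gene symbol, with their lower values after phf14 morpholino injection already known, and all 4 symbols were found among the 4591 genes that both deposited tables list. The difference between the libraries therefore chose them, and it is given as a description with no test. Each group was 1 library of whole embryos of the Tuebingen strain at 4.7 h after fertilization. Morpholinos are antisense oligomers that keep a chosen transcript from being translated or spliced. One group received 5 ng of a standard (control) morpholino and the other 5 ng of a phf14 morpholino, both at the 1-cell stage, so the controls had been injected too; these are called the control library and the phf14 library. PHF14 is a chromatin protein that reads histone H3, and the series asks about its part in zygotic genome activation. The labels do not state how many embryos were pooled, and phf14 itself was not analysed here. With 1 library per group there is no replicate error, and no p-value is given.

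The yolk syncytial layer is a thin layer of shared cytoplasm with many nuclei that lies between the yolk and the blastoderm of fish embryos. It takes up yolk lipid, packs it into lipoproteins for the embryo, and makes plasma proteins before the liver does. Apolipoproteins are the protein coat of these particles. Hepatocyte nuclear factor 4 alpha, the product of hnf4a, is a nuclear receptor that switches on apolipoprotein and other plasma protein genes in the mammalian liver and gut.

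All 4 genes had lower values in the phf14 library, by 20.6% for apoc1, 29.0% for afp4, 34.0% for hnf4a and 55.1% for apoc2. Their values, in the authors' own expression unit, summed to 360.84 in the control library and 258.33 in the phf14 library, a ratio of 0.716. The same values summed over all listed genes to 75675 and 71136. The 4 genes thus held 0.477% of the control total and 0.363% of the phf14 total. Because the files do not say whether values were divided by transcript length, the order of levels among the 4 genes is not given. The same limit holds wherever genes are matched by their deposited value.

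Of the 2 C apolipoproteins, apoc1 encodes a small exchangeable protein of very low density and high density lipoproteins that in mammals slows their clearance. The gene (ENSDARG00000092170) was at 125.40 in the control library and 99.56 in the phf14 library. This is a log2 ratio of -0.33, where every log2 ratio here is log2(value + 1) in the phf14 library minus the same in the control library. It was the smallest of the 4 differences on that scale.

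The other, apoc2, encodes the cofactor that lipoprotein lipase needs to release fatty acids from circulating particles. The gene (ENSDARG00000092155) was at 19.06 in the control and 8.56 in the phf14 library, a log2 ratio of -1.07. It was the largest of the 4 differences on the log2 ratio scale. The log2 ratios of the 2 C apolipoprotein genes lay 0.74 apart.

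The plasma protein gene of the set, afp4, encodes a type IV antifreeze protein, a small secreted protein of fish whose helical sequence resembles that of apolipoproteins. The gene (ENSDARG00000095863) was at 147.72 in the control and 104.88 in the phf14 library, a log2 ratio of -0.49. The receptor gene hnf4a (ENSDARG00000021494) was at 68.66 and 45.33, a log2 ratio of -0.59. On the log2 ratio scale both lay between the C apolipoprotein genes.

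**Figure D1:**
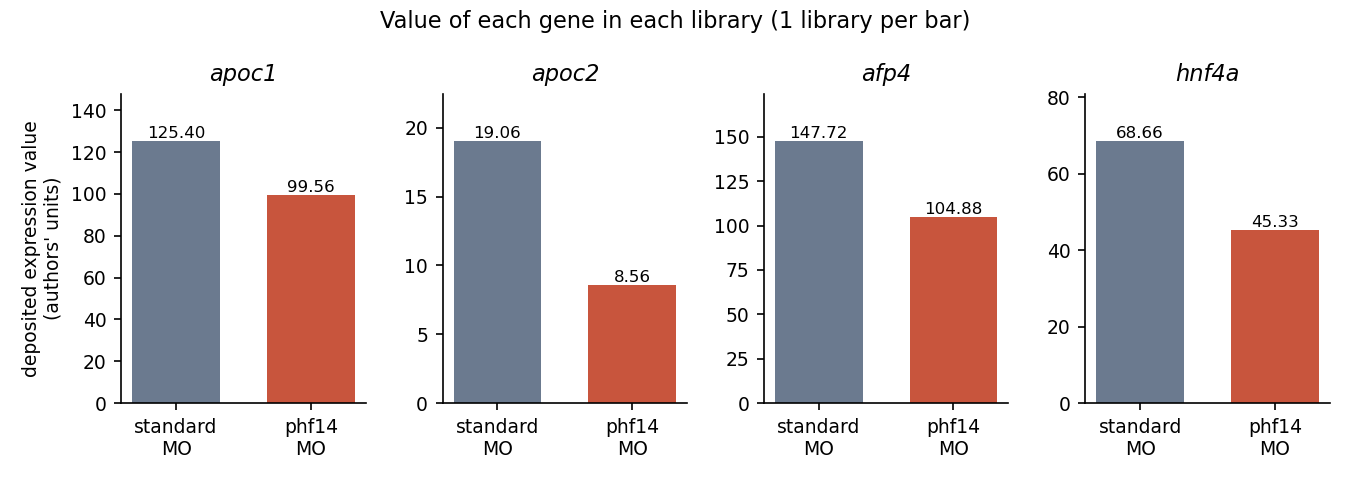
Deposited expression value (vertical axes, authors' units, each from 0) of apoc1, apoc2, afp4 and hnf4a in the control (standard MO, for morpholino; grey) and phf14 (phf14 MO, red) libraries; each bar is 1 library, so there is no error bar. The red bar is lower in all 4 panels, from 99.56 against 125.40 for apoc1 to 8.56 against 19.06 for apoc2.

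The size of these differences has to be read against the other genes of the same 2 libraries. A total of 3524 genes averaged at least 1 over both libraries, all 4 among them. Of these 3524, 37.2% had a lower and 62.3% a higher value in the phf14 library, 2.84% were at least 1.5-fold lower and 0.482% at least 2-fold lower. After centring on the median gene 50% of all genes were lower, and 50.6% with the trimmed mean factor. Folds here and in the lists below are folds of value + 1, so fewer low genes pass them than would with the deposited values. The plasma protein gene fetub, at 12.41 and 6.17, is for instance not counted as 2-fold lower. Without rescaling, the numbers of the 4 genes that were lower by any amount, by 1.5-fold and by 2-fold were 4, 2 (apoc2 and hnf4a) and 1 (apoc2). Since the genes were chosen on this same contrast, nothing is read from that excess. The median log2 ratio of the 4 was -0.54, against 0.11 over all genes. Ordered from the lowest log2 ratio, apoc2 was 13th, hnf4a 99th, afp4 167th and apoc1 373rd of the 3524.

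Abundant genes tended to have lower values in the phf14 library, so each gene was also placed among genes whose mean value lay within 2-fold of its own. For apoc1 there were 139 such genes, their median log2 ratio was -0.18, and 22.3% of them had a lower ratio than apoc1. For afp4 there were 125 genes with a median of -0.19, and 7.2% had a lower ratio. For these 2 genes, 83.5% and 84.0% of the like-level genes were lower in the phf14 library as well.

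For hnf4a there were 250 like-level genes, their median log2 ratio was -0.13, and 3.2% had a lower ratio. For apoc2 there were 981 like-level genes with a median of 0.10, and 3 of them, or 0.306%, had a lower ratio. Relative to these medians the genes lay at -0.15 (apoc1), -0.31 (afp4), -0.46 (hnf4a) and -1.17 (apoc2). The SD of the log2 ratio among like-level genes was between 0.27 and 0.36, which mixes real gene-to-gene differences with measurement error. These places describe genes that were chosen on the same ratio and are no test of it. In a narrower window of mean value, the shares with a lower ratio were 31.8% for apoc1, 12.2% for afp4, 5% for hnf4a and 0.645% for apoc2.

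**Figure D2:**
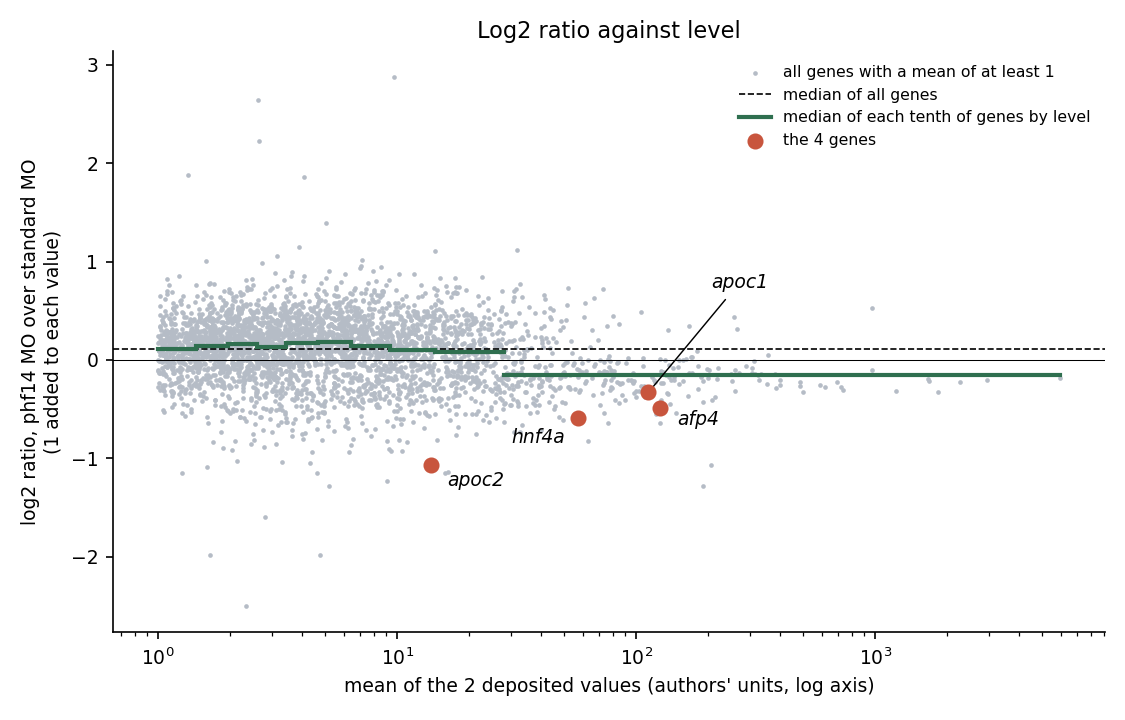
Log2 ratio of the phf14 over the control (standard MO) library (vertical axis, 1 added to each value) against the mean of the 2 deposited values (horizontal log axis, authors' units) for the 3524 genes averaging at least 1. Green steps are the medians of 10 equal groups of genes by level, the dashed line is the median of all genes at 0.11, and red points are the 4 genes. apoc2 at -1.07 stands at the lower edge of the genes at its level, whereas apoc1 at -0.33 lies inside the band of genes at its level.

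The genes nearest to each of the 4 in both libraries were found by the straight-line distance between log2(value + 1) in the 2 libraries, so that likeness rests on 2 points. The nearest named gene to apoc1 was rpl36, a ribosomal protein gene, at 118.74 and 95.53 (distance 0.098), after zgc:153665 and zgc:112994, which carry provisional symbols. Nearest to afp4 came alox5b.3, a lipoxygenase gene, at 146.37 and 102.87 (0.031), then tbxta, the zebrafish Brachyury gene of the early mesoderm, at 148.76 and 102.55 (0.034), and slc3a2b, an amino acid transporter subunit gene, at 144.84 and 108.89 (0.061).

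Nearest to hnf4a was hsd17b14, a hydroxysteroid dehydrogenase gene, at 67.25 and 44.36 (distance 0.042), followed at 0.19 and 0.21 by LOC100334495 and svopl. apoc2 had no close match. Its nearest genes were si:ch211-217k17.9 at 0.25, evpla, the envoplakin gene of the embryo's outer epithelium, at 0.25 with values of 22.31 and 9.49, and entpd1, an ectonucleotidase gene, at 0.27.

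The position of the genes was taken only as their order in the RefSeq gene table of the GRCz12tu assembly, since the labels name no genome build. apoc1 and apoc2 lie in 1 cluster of apolipoprotein genes, in the order apoa4b.3, si:dkey-7f3.14, apoa4b.2, apoeb, apoc1, a noncoding RNA gene, apoc4, apoa2 and apoc2. Of these, apoa4b.2, apoeb, apoc1 and apoc2 are in the deposited tables, and the others were not analysed here. apoc1 and apoc2 were chosen for their lower values, which leaves apoeb and apoa4b.2. Both were lower in the phf14 library, as were 37.2% of all genes. Of the 2, apoeb is among the 353 most abundant genes, where 73.1% were lower. apoeb, which encodes an apolipoprotein E that binds receptors of the low density lipoprotein receptor family, was at 1355.46 and 1089.79 (log2 ratio -0.31). apoa4b.2, an apolipoprotein A-IV gene, was at 5.23 and 4.12 (-0.28). Thus apoc1, apoeb and apoa4b.2 lay within 0.05 of each other on the log2 ratio scale, or within 0.15 with a pseudocount of 5, and apoc2 at the end of the cluster lay apart from them at -1.07.

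Within 5 places of afp4, LOC568656, the gene directly before it, was at 12.67 and 6.17 (log2 ratio -0.93). otud7b, a deubiquitinase gene, was at 2.77 and 3.03 (0.10, below 0 after centring on the median gene). Near hnf4a only pkig, an inhibitor gene of protein kinase A, was listed, at 2.54 and 1.13 (-0.73). The values of pkig are low, so its ratio depends on the pseudocount. Of all genes, 37.2% were lower. The labels do not state how reads shared by similar neighbouring genes were assigned.

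The wider apolipoprotein family was represented by 8 of 22 genes, of which 6 averaged at least 1. Of these 6, 5 had lower values in the phf14 library (37.2% of all genes were) and 1 was at least 1.5-fold lower (2.84% of all genes). Their median log2 ratio was -0.30. Of the 6, 2 are among the 353 most abundant genes, where 73.1% were lower. The gene past 1.5-fold was apoc2. Without apoc1 and apoc2, chosen for being lower, 3 of 4 were lower, 0 of 4 at least 1.5-fold, and the median was -0.22. apof, whose product in mammals inhibits lipid transfer between lipoproteins, was at 1.19 and 0.96 (-0.16). apodb, encoding a lipocalin carrier, was the exception at 2.69 and 2.84 (0.06, below 0 after centring on the median gene). apobb.1 and apoba, which encode the large structural B apolipoproteins, had means under 1 and were looked at outside the naming rule, after their values were seen. They stood at 0.56 and 0.27 for apobb.1 and at 0.26 and 0.18 for apoba, too low to give a useful ratio.

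Genes for assembly, processing and uptake of lipoproteins were represented by 11 of 46, of which 8 averaged at least 1. Of these 8, 7 had lower values in the phf14 library, against 37.2% of all genes. Their median log2 ratio was -0.27, and 1 was at least 1.5-fold lower, against 2.84% of all genes. That gene was abca1b, which encodes an exporter of cholesterol to apolipoproteins, at 12.64 and 8 (-0.60). mttp, whose product loads lipid onto apolipoprotein B in the secretory pathway, was at 37.40 and 26.75 (-0.47). sort1b, a sortilin sorting receptor gene, was at 8.27 and 5.96 (-0.41).

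Of the remaining genes of that list, lcat, encoding the enzyme that esterifies cholesterol on high density lipoprotein, was at 2.31 and 1.74 (-0.27). lpl, the lipase that uses the apoc2 product as its cofactor, was at 6.07 and 4.91 (-0.26), a smaller difference than that of apoc2. lmf2a, a lipase maturation factor gene, had -0.04, and pltp, a phospholipid transfer protein gene, -0.02. lrpap1, encoding a chaperone of lipoprotein receptors, was higher in the phf14 library at 5.79 and 6.47 (0.14).

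Plasma protein genes as a list were split as deposited. Of 54, 6 were listed and 4 averaged at least 1, afp4 among them. Of these 4, 2 were lower and 2 higher in the phf14 library (median -0.20), against 37.2% and 62.3% of all genes. Without afp4, 1 of 3 was lower. After centring on the median gene 3 of 4, afp4 among them, were lower, against 50% of all genes. With the trimmed mean factor 2 of 4 were, against 50.6%. Of the plasma protein genes averaging at least 5, 2 of 2 were lower, against 43.6% of all such genes. These were fetub and afp4, and afp4 was chosen for being lower. fetub, encoding the protease inhibitor fetuin B, was at 12.41 and 6.17 (-0.90), a larger difference on the log2 scale than that of afp4. fn1a, encoding the matrix and plasma protein fibronectin, was higher at 1.58 and 3.39 (0.77). rbp4l, related to the retinol carrier gene rbp4, was at 0.97 and 1.10 (0.09, below 0 after centring on the median gene).

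Transcription factors of endoderm and liver, the class of hnf4a, were represented by 14 of 30 genes, of which 13 averaged at least 1. Of these 13, 12 had lower values in the phf14 library and 2 were at least 1.5-fold lower, against 37.2% and 2.84% of all genes, with a median of -0.42. In this list 8 of the 13 are among the 353 most abundant genes, where 73.1% were lower. Without hnf4a, chosen for being lower, 11 of 12 were lower, 1 of 12 at least 1.5-fold, and the median was -0.37. nr0b2a, which encodes a receptor without a DNA-binding domain that in mammals represses HNF4A and other receptors, had the lowest ratio at 41.12 and 25.58 (-0.66). cebpa, a bZIP factor gene of the liver, was at 11.61 and 7.80 (-0.52). gata6, a GATA factor gene of endoderm and the yolk syncytial layer, was at 82.29 and 59.45 (-0.46).

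At the other end of that list cebpb, a related bZIP factor gene, was nearly level at 168.34 and 171.56 (0.03, below 0 after centring on the median gene). onecut1 had a log2 ratio of -0.21 and foxa3, a forkhead gene of the endoderm, was at 114.22 and 94.98 (-0.26). mxtx1, a homeobox gene of the yolk syncytial layer, was at 57.25 and 47.18 (-0.27).

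The nuclear receptor family, to which hnf4a belongs, had 20 listed genes and 12 averaging at least 1. These were split, 6 lower and 6 higher in the phf14 library, against 37.2% and 62.3% of all genes. Their median was 0.03, which turned to -0.08 after centring on the median gene. Without hnf4a, chosen for being lower, 5 of 11 were lower and the median as deposited was 0.07. Of the 4 averaging at least 5, 3 were lower, hnf4a among them, against 43.6% of all such genes. nr0b2a and hnf4a had the lowest ratios, followed by pgr, the progesterone receptor gene, at 5.60 and 4.18 (-0.35) and nr2f6b, an orphan receptor gene, at -0.14. The highest ratios were those of nr1h3, the oxysterol receptor gene, at 2.16 and 3.95 (0.65), and rarga, a retinoic acid receptor gene, at 1.34 and 2.49 (0.58). These values are low, and the ratios varied with pseudocount and scaling, from 0.32 to 0.84 for nr1h3 and from 0.24 to 0.85 for rarga. nr3c1, the glucocorticoid receptor gene, had 0.25 and thraa, a thyroid hormone receptor gene, 0.23. Of 13 genes for coactivators that work with HNF4A in mammals, ep300b at 11.39 and 12.29 (0.10) and crebbpa at 5.42 and 5.99 (0.12) were listed. Both are acetyltransferase genes, and both were below 0 under the trimmed mean scaling, ep300b also after centring.

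**Figure D3:**
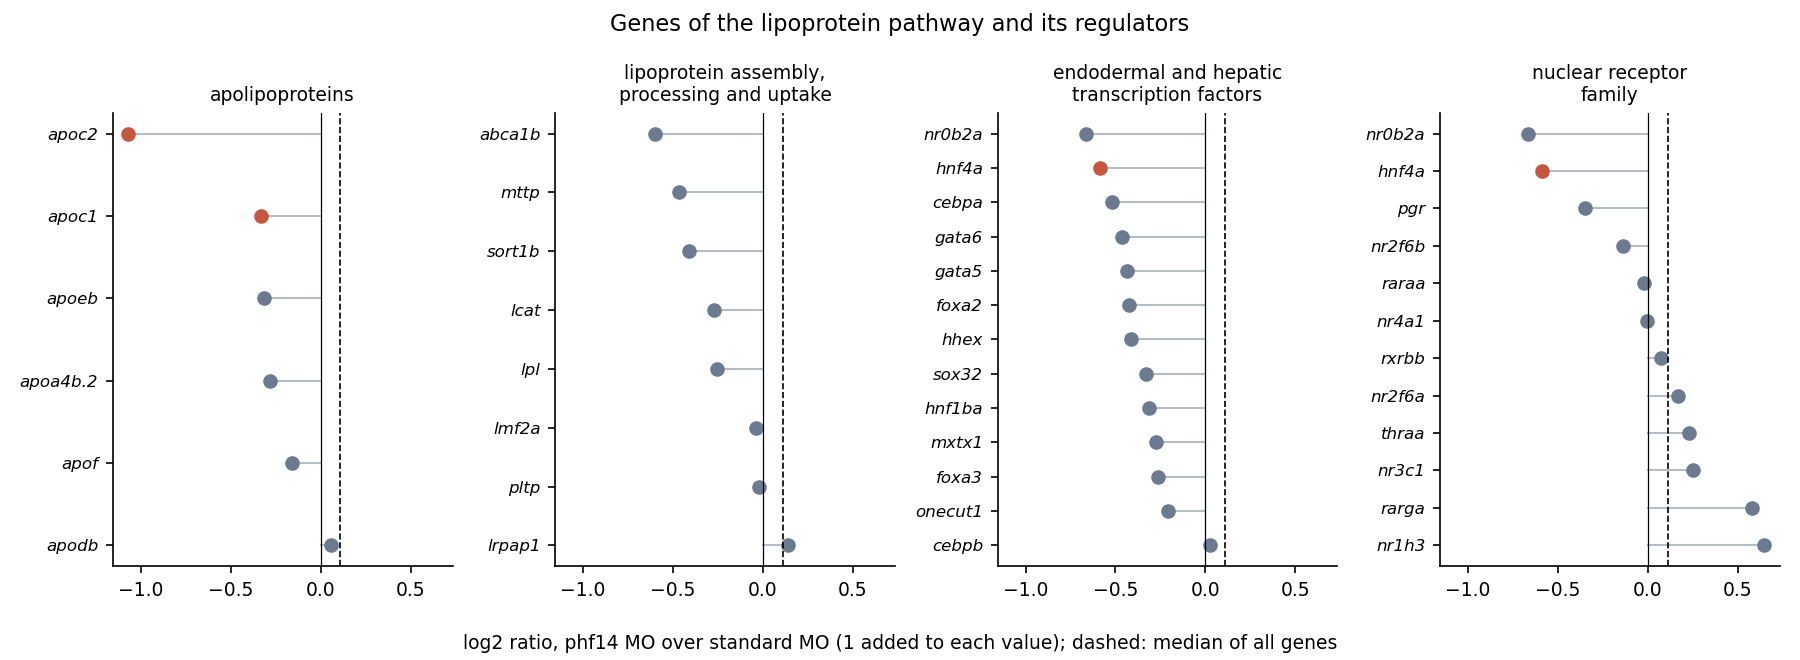
Log2 ratio of the phf14 over the control (standard MO) library (horizontal axes, 1 added to each value) for each gene averaging at least 1 in 4 gene lists; red marks apoc1, apoc2 and hnf4a, the solid line is 0 and the dashed line the median of all genes at 0.11. Points lie left of 0 for 5 of 6 apolipoprotein genes, 7 of 8 assembly, processing and uptake genes and 12 of 13 transcription factor genes, but for 6 of 12 nuclear receptor genes. Of all genes, 37.2% were lower, and the genes in red were chosen for being lower.

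Marker lists were looked at for the tissue in question and for other parts of the embryo. Of 19 yolk syncytial layer markers, 11 were listed, none at 0 in either library. Few of all 4591 listed genes were at 0 (26 in the control and 25 in the phf14 library). None at 0, here or for the lists below, thus does not show that a tissue was present. Of the 11 markers, 10 averaged at least 1. All 10 had lower values in the phf14 library. Over all genes 37.2% were lower, but 8 of the 10 markers are among the 353 most abundant genes, where 73.1% were. Over all 11 listed markers the values summed to 1962 and 1530, a ratio of 0.780, with apoeb the greater part of both sums. Since 4 of the 10 were chosen for being lower, the other 6 are given apart: all 6 were lower, at a median log2 ratio of -0.45. Among the 6, apoeb, mttp, gata5, gata6 and mxtx1 were already counted in the lists above, so only slc26a1 is a further gene. All of the 6 but slc26a1 are among the 353 most abundant genes, where 73.1% were lower. Of these 6, slc26a1, a sulfate transporter gene, was at 25.55 and 17.07 (-0.56) and gata5 at 42.57 and 31.17 (-0.44), both named after their values were seen.

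Markers of other parts of the embryo differed between the libraries as well. The enveloping layer, the outer epithelium, had 16 of 22 markers listed, none at 0. Of the 15 averaging at least 1 all 15 were lower in the phf14 library, and 9 of them are among the 353 most abundant genes, where 73.1% were lower, against 37.2% of all genes. The other listed gene, tp63, averaged under 1 and was higher in the phf14 library, at 0.92 and 1.02 (0.07, below 0 after centring on the median gene). Whether tp63 marks this layer was not tested. Values over all 16, tp63 among them, summed to 2507 and 2017 (ratio 0.804), and the 15 had a median log2 ratio of -0.33. Deep cell mesendoderm had 10 of 13 markers listed, none at 0, of which 8 were lower and 6 are among those 353 most abundant genes, with sums of 869 and 713 (ratio 0.820) and a median of -0.29. The yolk syncytial layer and mesendoderm lists share gata5, and the transcription factor and mesendoderm lists share gata5 and sox32.

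Oocyte-supplied transcripts went the other way. Of 18 such markers, 10 were listed, none at 0, and 9 were higher in the phf14 library, against 62.3% of all genes, with sums of 185 and 234 (ratio 1.26) and a median of 0.26. Of the 10, 1 is among the 353 most abundant genes, where 73.1% were lower. The share of 62.3% is thus not matched for level. The part of these other lists in the values of apoc1, apoc2, afp4 and hnf4a was not tested. In RNA of whole embryos, fewer cells or nuclei of a type and less RNA from each cannot be told apart.

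**Figure D4:**
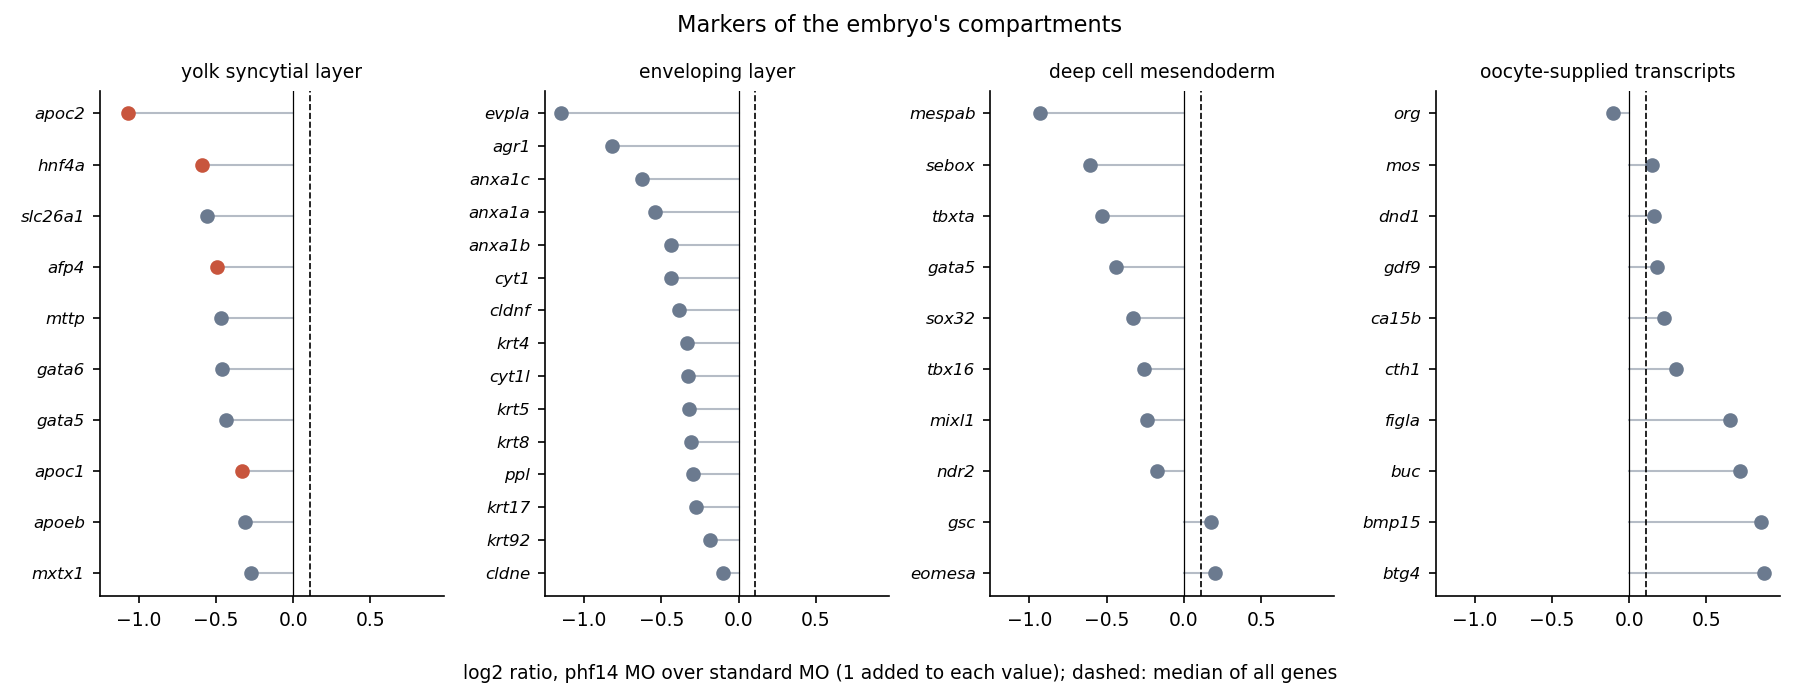
Log2 ratio of the phf14 over the control (standard MO) library (horizontal axes, 1 added to each value) for each listed marker averaging at least 1 in 4 lists; red marks apoc1, apoc2, afp4 and hnf4a, the solid line is 0 and the dashed line the median of all genes at 0.11. All 10 yolk syncytial layer and all 15 enveloping layer markers lie left of 0, as do 8 of 10 mesendoderm markers, whereas 9 of 10 oocyte-supplied transcripts lie right of it. Of all genes, 37.2% were lower and 62.3% higher.

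The log2 ratio of each of the 4 genes stayed negative under every setting, but this was fixed in advance and is no check. A pseudocount cannot turn the sign, and both rescalings lowered every log2 ratio. Only the size of the log2 ratio could vary. It ran from -0.48 to -0.32 for apoc1, from -0.64 to -0.47 for afp4, from -0.74 to -0.55 for hnf4a and from -1.20 to -0.83 for apoc2. With a pseudocount of 5, apoc2 was no longer past 2-fold and hnf4a no longer past 1.5-fold, and with either rescaling (centring or the trimmed mean factor) afp4 was past 1.5-fold. Rescaling lowered the log2 ratios of other genes too. The shares of all genes past 1.5-fold and 2-fold were not counted under these settings.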

How the data were processed

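Illumina TruSeq libraries were prepared with 1 ug of total RNA per sample, per the labels' protocols. For each library the authors deposited a table with a single expression signal per gene, and per the file headers the column is called only expression. The 4591 genes used here do not include every annotated gene, apoa2 for one. Shares of all genes and of the most abundant genes are therefore shares of these genes, not of every zebrafish gene. The values are not whole and have at most 2 decimals, so they were handled as a normalised signal whose scale is unstated. Aligner, build, annotation and quantification were not given in the sources used here. Depth is unknown, and intervals from counts could not be computed.

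Log2 ratios used a pseudocount of 1, which understates the change of low genes, and were summarised over genes averaging at least 1 in the pair of libraries. Python 3.11.15 with pandas 2.3.3 and numpy 2.4.6 was used. The code was also run on simulated data, with no pass mark set for the changed genes it recovered. The members and gene lists were chosen with earlier results of these data known. Genes named were the 4 members, up to 4 at each end of each list, the 3 nearest genes to each member, and listed neighbours. All 4 member identifiers carried the same symbol in the reference name table. Alternatives were a pseudocount of 0.1 or 5, values centred to the median gene, a trimmed mean of M values factor (dropping 30% of ratios and 5% of levels from either end), a filter at a mean of 5 or none, and other like-level windows.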

Additional observations from a re-analysis of the deposited data

How the results depend on the processing

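No paired analysis was possible because there is a single library in either group, and for the same reason none could be left out. No log2 ratio of apoc1, apoc2, afp4 or hnf4a changed sign, and none could have under the pseudocounts and rescalings used. Keeping genes averaging at least 5 left fewer genes to count. Lower in the phf14 library were then 3 of 3 apolipoprotein, 4 of 5 assembly, processing and uptake and 3 of 4 nuclear receptor genes. Of all genes 734 of 1683 were. The 3 apolipoprotein genes include apoc1 and apoc2, and the 3 lower nuclear receptor genes include hnf4a. These were chosen for being lower, so nothing is read from those 2 counts. Of the 2 HNF4 coactivator genes, none lower as deposited, 1 was lower after centring on the median gene and 2 with the trimmed mean factor. The share of genes with a lower log2 ratio than apoc1, 22.3% within 2-fold in mean value, was 31.8% among the 44 genes of the narrower window and 10.6% among all genes averaging at least 1. For afp4 the share rose from 7.2% to 12.2% in that window and was 4.71% among all genes, for hnf4a from 3.2% to 5%, and for apoc2 from 0.306% to 0.645%; the cause was not tested. Rescaling raised the lower genes from 1312 of 3524 to 1762 (centring) or 1783 (trimmed mean factor). Centring subtracts 0.11 from every log2 ratio.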
